A study of Sus scrofa with 30 samples.

Results

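RNA from cultured neonatal islet cell clusters (NICCs) was compared between the start of maturation and its end in the presence of SB431542, a small-molecule inhibitor of the kinase of the type I TGF-beta receptor TGFBR1 and its close relatives. The question was what still changed over these days of culture in the presence of an inhibitor of the receptor kinase, whose activity was not measured in these data. NICCs are clusters of endocrine and accompanying cells prepared from the pancreas of piglets aged 2 to 12 days, of German Landrace and Landrace-Yorkshire pigs. The sequenced clusters came from animals aged 4 and 12 days. The labels tie no library to an age, so that age cannot be told apart from the other differences between replicates. All clusters compared here matured without serum, in medium that held human serum albumin (HSA) at 0.6 mg/ml. The members were the 4 libraries labelled HSA at culture day 6, which is maturation d1 (HSA/d1), and the 4 libraries labelled HSA + SB at culture day 10, which is maturation d5 with 10 μmol/l SB431542 (HSA + SB/d5). These were 8 of the 24 libraries of the series. The 4 libraries kept in HSA without the inhibitor until culture day 10 (HSA/d5) were used where the question was whether a change differed from that of the usual medium. For a repeat in other libraries, the 4 of HSA + SB + LDN/d5 and the 4 of HSA + LDN/d5 were used, where LDN is a further addition that the labels do not explain. No library with SB431542 was taken at maturation d1, so the inhibitor and the days of culture were told apart only through HSA/d5. The labels speak of 4 islet preparations and tie no library to one of them, so p values measure the spread between these libraries.

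TGF-beta, activins and related ligands bind pairs of receptors whose kinase phosphorylates SMAD proteins, which then enter the nucleus and switch genes on or off. Among the genes they switch on are brakes on the pathway itself, such as SMAD7 and SKIL, and many genes of the extracellular matrix. In the young pancreas, beta cells still divide, their granules and secretory machinery are being built up, and the clusters in culture also hold duct, acinar, mesenchymal and endothelial cells.

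Counted reads per library ranged from 20772839 to 22967442 in HSA/d1 and from 19533939 to 24346119 in HSA + SB/d5. Expression values are given as CPM, the reads of a gene relative to all counted reads of the library after TMM scaling. They compare libraries for a given gene, not genes with each other, since gene lengths were not used. A gene was called when its log2 fold change was above 1 or below -1 and its adjusted p was below 0.05 in edgeR's quasi-likelihood test with Benjamini-Hochberg adjustment over the 14842 genes tested. Errors of log2 fold changes are standard errors (SE).

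Some libraries stood apart. In HSA/d5 replicate 3, the summed CPM of 10 mesenchymal markers was 932, against 5123 to 5760 in the other HSA/d5 libraries, and the 4 libraries with fetuin-A in place of HSA had 539 to 1183. All 24 libraries share 1 estimate of the spread between replicates, so this library enters HSA + SB/d5 vs HSA/d1 only through that estimate, and without it 736 genes were higher and 360 lower there. It enters both comparisons with HSA/d5 also through the group mean. Values without it are given below for many of the calls and counts that changed, not for all. The summed CPM of 9 endocrine markers in this library was 30162. It lay within the 23696 to 41358 of the other HSA/d5 libraries and above the 2637 to 17471 of those with fetuin-A. From the counts alone, a mixed-up or mixed sample cannot be told apart from a difference between preparations. Replicate 4 of each group was high in 3 Schwann cell markers, with a summed CPM of 556 in HSA/d1 against 101 to 180 in the others, and of 1178 in HSA + SB/d5 against 238 to 310. When replicate 4 of each condition was left out, which was decided after seeing the data, 687 genes were higher and 322 lower in HSA + SB/d5 than in HSA/d1.

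With all 8 libraries, 727 genes were upregulated (4.90% of those tested) and 346 were downregulated (2.33%) in HSA + SB/d5 vs HSA/d1. Called genes that were higher had a median log2 fold change of 1.38, those that were lower one of -1.56, and the median of all genes tested was -0.005. The libraries of both groups did not overlap for 14.4% of genes upwards and 14.6% downwards. The upregulated genes included hormones, granule proteins, secretory and cell cycle genes. The downregulated genes included TGF-beta pathway brakes, collagens and collagen-crosslinking enzymes. Without the inhibitor, HSA/d5 vs HSA/d1 gave 994 upregulated (6.70%) and 329 downregulated genes (2.22%), or 988 and 345 without HSA/d5 replicate 3. The direct comparison of both ends, HSA + SB/d5 vs HSA/d5, gave 136 higher (0.916%) and 223 lower genes (1.50%), or 119 and 269 without HSA/d5 replicate 3. Of the 136 and 223 genes, 99 and 199 were called in both fits. This comparison tests the difference between the time courses, because both begin with the same HSA/d1 libraries. With the order of the libraries as a replicate block it gave 268 higher and 371 lower genes, with only the libraries of both groups in the fit 68 and 91, and without HSA + SB/d5 replicate 1 92 and 144.

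**Figure D1:**
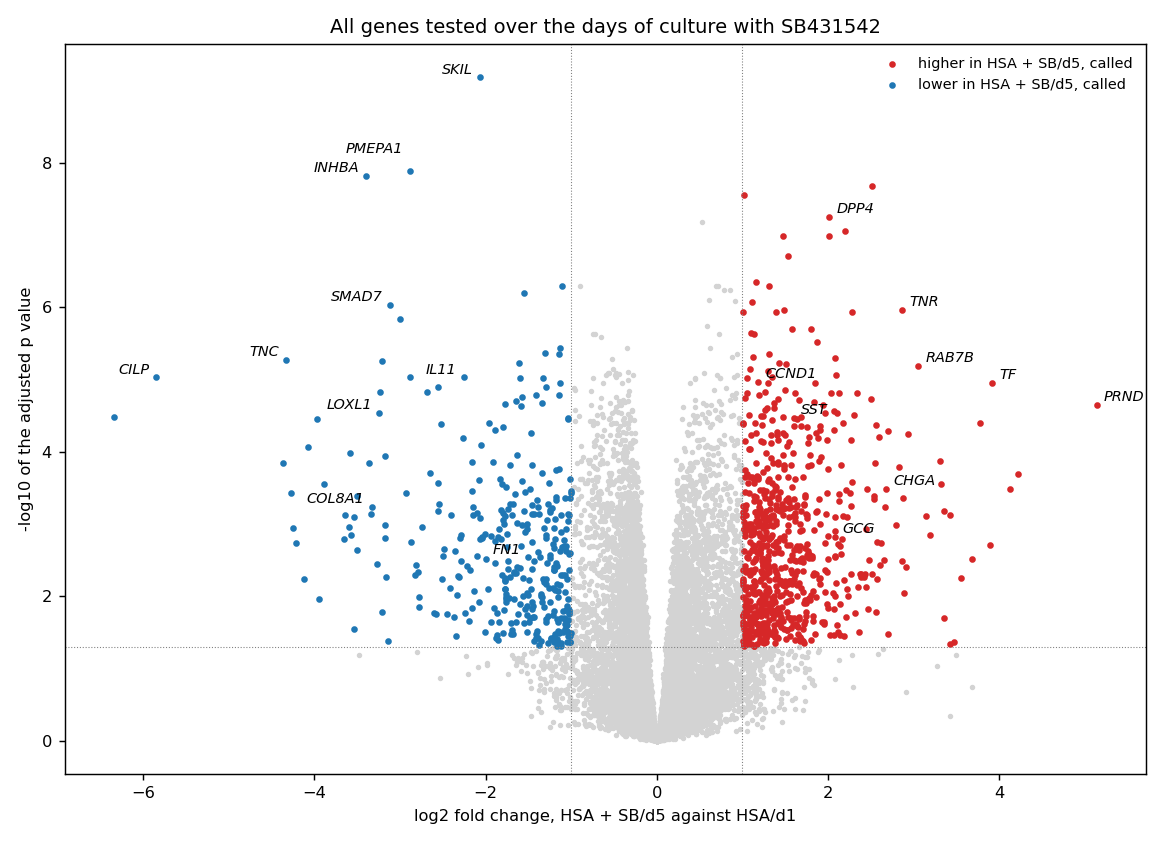
Each point is 1 of the 14842 genes tested in HSA + SB/d5 vs HSA/d1, with its log2 fold change on the x axis and the negative log10 of its adjusted p on the y axis; dotted lines mark the thresholds, red points are the 727 upregulated and blue points the 346 downregulated genes. SKIL, INHBA and PMEPA1 lie at the top left and DPP4, TNR, TF and PRND at the right.

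The transcripts of glucagon and somatostatin rose in the presence of the inhibitor. GCG, which encodes glucagon, was at 3441, 2947, 3787 and 4550 CPM in HSA/d1 and at 14940, 11500, 16950 and 18990 CPM in HSA + SB/d5. All libraries at d5 were above all at d1, and GCG rose by 2.08 ± 0.44 on the log2 scale (adjusted p = 0.00152). SST, encoding somatostatin, went from 540 to 727 CPM in HSA/d1 to 1654 to 2206 CPM in HSA + SB/d5 and rose by 1.60 ± 0.22 (adjusted p = 3.43e-05). PPY, encoding pancreatic polypeptide, rose by 1.34 ± 0.46 (adjusted p = 0.0327), a call lost without any 1 of 5 libraries, HSA/d1 replicates 2 and 3 and HSA + SB/d5 replicates 1, 3 and 4, with values of 1.13 to 1.31 and adjusted p up to 0.102. Of 7 tested genes for the other islet hormones and the transcription factors of their cells, 6 rose and 0 fell, IRX1 and IRX2, which are typical of alpha cells, among them. The number was 4 without HSA/d1 replicate 2, HSA + SB/d5 replicate 3 or HSA + SB/d5 replicate 4. In HSA/d5 vs HSA/d1, 6 also rose, or 5 without HSA/d5 replicate 3, and the median of the 7 was 1.90, against 1.41 with the inhibitor. None of the 7 passed both thresholds in HSA + SB/d5 vs HSA/d5, where GCG differed by -0.32 (95% interval -1.21 to 0.57) and SST by -0.50 (-0.95 to -0.04, adjusted p = 0.184). PPY had the lowest value there, at -0.99, and 6 of the 7 were negative. Here, as in the rest of these bulk samples, more cells of a type and more RNA per cell cannot be told apart.

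INS, encoding insulin, spread more than the other hormones. Its CPM was 349, 387, 930 and 1376 in HSA/d1, 1562, 997, 3024 and 4548 in HSA + SB/d5 and 1447, 413, 2684 and 5651 in HSA/d5. Each HSA + SB/d5 library was above the HSA/d1 library of the same number, but the groups overlapped. The log2 fold change was 1.74 ± 0.82 (adjusted p = 0.112) and thus not called, and 1.71 (adjusted p = 0.000204) with the replicate block, which called it. Against HSA/d5 the difference was -0.01 with a wide 95% interval of -1.66 to 1.64.

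Most granule and hormone-processing genes rose. Of 16 tested, 12 rose and 0 fell, with a median log2 fold change of 1.74, and the count was 9 without any 1 of HSA/d1 replicate 1, HSA/d1 replicate 2 and HSA + SB/d5 replicate 4. CHGA, encoding the granule protein chromogranin A, was at 444, 494, 902 and 915 CPM in HSA/d1 and at 3569, 3429, 5530 and 5154 CPM in HSA + SB/d5. It rose by 2.68 ± 0.47 (adjusted p = 0.000325), with no overlap. PCSK2, a convertase that cuts prohormones, went from 82.3 to 217 CPM to 389 to 827 CPM and rose by 2.11 ± 0.46. CPE, the carboxypeptidase acting after the convertases, rose by 2.46 ± 0.43, PTPRN2 and PTPRN, membrane proteins of the granule, by 2.26 ± 0.34 and 1.76 ± 0.26, and TTR, encoding transthyretin, by 2.07 ± 0.28. The convertase PCSK1 (1.28 ± 0.46) and CHGB (1.16 ± 0.38) were called with all libraries but not without HSA/d1 replicate 1, HSA/d1 replicate 2 or HSA + SB/d5 replicate 4, and PCSK1 also not without HSA/d1 replicate 3 or HSA + SB/d5 replicate 3. Where the call was lost, the log2 fold change of PCSK1 lay between 0.99 and 1.34 and that of CHGB between 0.98 and 1.10. SLC30A8, the zinc transporter of the insulin granule, was at 1.45 ± 0.63 (adjusted p = 0.0845) and was called with the replicate block (adjusted p = 3.02e-05). In HSA/d5 vs HSA/d1, 13 of the 16 rose with a median of 2.00. In HSA + SB/d5 vs HSA/d5 none of the 16 was called and the median was -0.23. CHGB was at -0.97 and all its HSA + SB/d5 libraries, at 699 to 1117 CPM, were below all HSA/d5 libraries, at 1287 to 2498 CPM, but the adjusted p was 0.131. Over the 16 alternative fits of this comparison its adjusted p went down to 0.00734, and none called it.

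Among transcription factors of beta cells, 6 of 16 tested rose and 0 fell (median 0.96). NEUROD1, needed for islet development and insulin transcription, was at 20.3, 21.2, 29.4 and 36.2 CPM in HSA/d1, at 57.1, 49.7, 82.4 and 89.8 CPM in HSA + SB/d5 and at 105, 83.5, 108 and 143 CPM in HSA/d5. It rose by 1.38 ± 0.35 with the inhibitor (adjusted p = 0.00579) and by 2.04 ± 0.36 without it. The difference of -0.65 ± 0.34 had an adjusted p of 0.28, and 0.0126 with the replicate block at -0.68. RFX6, MLXIPL, ISL1 and PAX6, which take part in endocrine identity or glucose response, rose by 1.63, 1.68, 1.25 and 1.24, and NEUROG3, the factor that starts endocrine differentiation, by 1.39 ± 0.26. The call of PAX6 was lost without HSA/d1 replicate 1, HSA/d1 replicate 2, HSA + SB/d5 replicate 3 or HSA + SB/d5 replicate 4 (1.08 to 1.15, largest adjusted p 0.0582). MAFA, a factor of mature beta cells, was at 0.50 to 3.11 CPM in HSA/d1 and at 1.18 to 5.30 CPM in HSA + SB/d5, with a log2 fold change of 1.06 ± 0.76 (adjusted p = 0.302, and 0.00138 with the replicate block, which called it). NKX2-2 (0.85 ± 0.20) and GLIS3 (-0.44 ± 0.14) passed the adjusted p but not the fold threshold.

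PAX4, a repressor active in beta cell precursors, behaved otherwise than the list. It was at 0.609, 0.272, 0.328 and 0.479 CPM in HSA/d1, at 0.494, 0.102, 0.419 and 0.287 CPM in HSA + SB/d5 and at 2.53, 1.61, 0.794 and 2.36 CPM in HSA/d5, which is 6 to 12, 2 to 12 and 18 to 56 reads. The groups with and without the inhibitor did not overlap at d5. PAX4 rose in HSA/d5 vs HSA/d1 by 2.10 ± 0.42, was at -0.34 ± 0.48 in HSA + SB/d5 vs HSA/d1, and differed between the ends by -2.44 ± 0.43 (adjusted p = 0.00146), or by -2.69 without HSA/d5 replicate 3. It was the only one of the 16 called in HSA + SB/d5 vs HSA/d5.

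Of 37 tested genes for glucose sensing and secretion, 19 rose and 0 fell with the inhibitor (median 1.11), and 11 rose without HSA/d1 replicate 1. ABCC8, a subunit of the ATP-sensitive potassium channel, was at 34.0, 27.4, 70.4 and 84.7 CPM in HSA/d1 and at 106, 77.8, 215 and 215 CPM in HSA + SB/d5, with an overlap. It rose by 1.50 ± 0.54 (adjusted p = 0.0392), and this call was lost without HSA/d1 replicate 1, HSA/d1 replicate 2, HSA + SB/d5 replicate 3 or HSA + SB/d5 replicate 4, with values of 1.28 to 1.34 and adjusted p up to 0.115. Several receptors that tune secretion rose: SSTR3 for somatostatin by 2.83 ± 0.46, GPR119 for lipid amides by 2.22 ± 0.44, CASR for calcium by 1.55 ± 0.30, GIPR for the incretin GIP by 1.35 ± 0.24 and PRLR for prolactin by 1.58 ± 0.41. So did ADCY1, an adenylate cyclase (1.69 ± 0.40), CACNA1H, a calcium channel (1.11 ± 0.19), and SYT10, SYT7 and SNAP25 of the fusion machinery (2.37 ± 0.60, 1.37 ± 0.38 and 1.32 ± 0.38). SSTR1, another somatostatin receptor, named after its values had been seen, had the lowest value of the list. It was at 22.3, 13.3, 16.3 and 14.1 CPM in HSA/d1 and at 12.7, 9.0, 9.22 and 6.78 CPM in HSA + SB/d5, without overlap, and its log2 fold change of -0.81 ± 0.30 (adjusted p = 0.043) was under the fold threshold, as was the -0.86 ± 0.30 without the inhibitor. SLC2A2, a glucose transporter, was at -0.24 ± 0.45. G6PC2, an islet glucose-6-phosphatase, was at 1.00 ± 0.92 and was called only with the replicate block. In HSA/d5 vs HSA/d1, 22 of the 37 rose (median 1.50), or 21 without HSA/d5 replicate 3. In HSA + SB/d5 vs HSA/d5 the median was -0.33, 27 of the 37 had a negative value and 1 was called lower, or 2 without HSA/d5 replicate 3. ABCC8, at 232, 157, 232 and 412 CPM in HSA/d5, was lower with the inhibitor in each of the 4 blocks, with a difference of -0.75 ± 0.53 (adjusted p = 0.451, and 0.0133 with the replicate block). GIPR differed by -0.92 ± 0.22 (adjusted p = 0.0148), and was called lower, at -1.08, without HSA/d5 replicate 3.

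Most cell cycle genes tested were higher with the inhibitor than in HSA/d1. Of 26 tested, 10 rose and 0 fell, and 23 had a positive log2 fold change with an adjusted p below 0.05, against 16.1% of all genes. TOP2A, the topoisomerase of dividing cells, was at 33.9, 58.6, 38.4 and 64.3 CPM in HSA/d1 and at 123, 84.5, 119 and 130 CPM in HSA + SB/d5, without overlap, and rose by 1.22 ± 0.29 (adjusted p = 0.00323). CENPA, a centromere histone, CDK1, the mitotic kinase, AURKB, UBE2C, CCNB2 and the transcription factor E2F1 rose by 1.61, 1.16, 1.22, 1.18, 1.15 and 1.16. FOXM1, a driver of mitotic genes, rose by 1.03 ± 0.22 but stayed above 1 in only some fits, 0.94 to 1.14 with single libraries left out, as did the motor protein KIF11 (1.03, 0.94 to 1.14). Each lost its call without HSA/d1 replicate 1, HSA/d1 replicate 3, HSA + SB/d5 replicate 1 or HSA + SB/d5 replicate 4. CCND1, the cyclin of the first gap phase, was at 50.5, 49.1, 56.2 and 64.8 CPM in HSA/d1, at 128, 119, 120 and 134 CPM in HSA + SB/d5 and at 75.6, 76.0, 103 and 94.2 CPM in HSA/d5. It rose by 1.18 ± 0.14 (adjusted p = 1.08e-05), and its difference from HSA/d5 was 0.52 ± 0.14 (adjusted p = 0.0295), with no overlap and under the fold threshold. Without the inhibitor 7 of the 26 rose, or 9 without HSA/d5 replicate 3, 4 without HSA/d1 replicate 1 or HSA/d5 replicate 1 and 10 without HSA/d1 replicate 4. No cell cycle gene was called in HSA + SB/d5 vs HSA/d5, where TOP2A differed by 0.16 (95% interval -0.43 to 0.75).

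**Figure D2:**
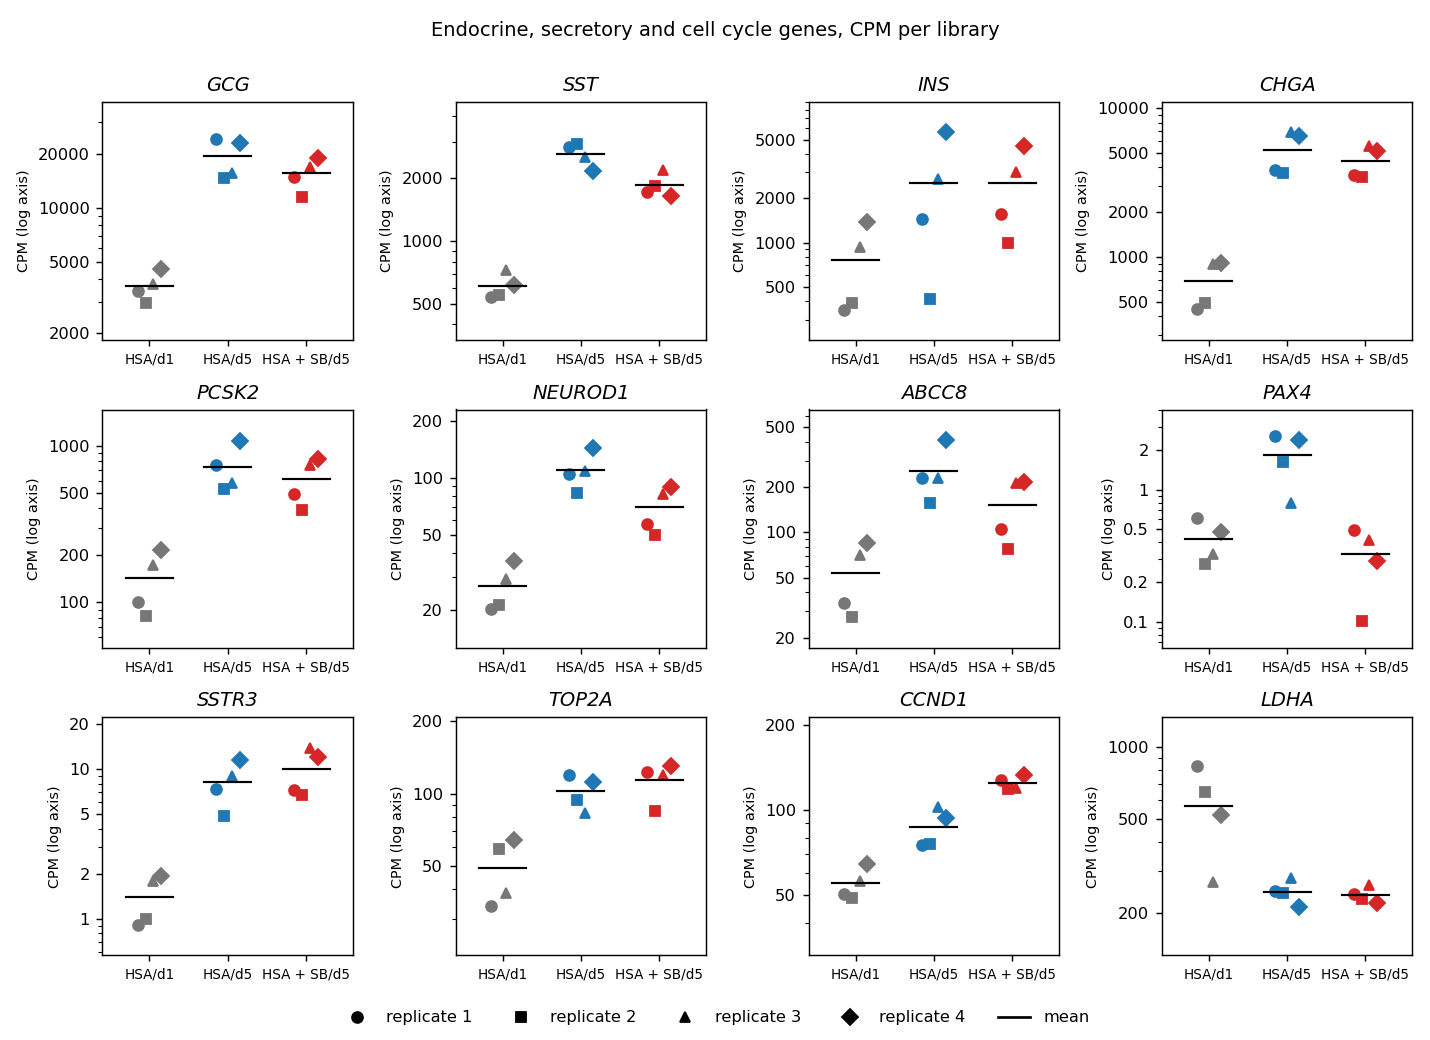
CPM on a log axis of 12 genes in the 4 libraries each of HSA/d1 (grey), HSA/d5 (blue) and HSA + SB/d5 (red), with a marker for each replicate and a line at the mean. GCG, SST, CHGA, PCSK2, NEUROD1, SSTR3, TOP2A and CCND1 lie higher at d5 with or without the inhibitor, whereas PAX4 is highest in HSA/d5 and LDHA falls in both.

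Of 12 tested genes that mature beta cells keep low, 2 fell with the inhibitor. LDHA, encoding lactate dehydrogenase, was at 836, 645, 270 and 520 CPM in HSA/d1, at 241, 230, 262 and 221 CPM in HSA + SB/d5 and at 248, 243, 281 and 213 CPM in HSA/d5. The spread at d1 was wide, and the fall by 1.25 ± 0.24 (adjusted p = 0.000646) was not called without HSA/d1 replicate 1, where its size was below the fold threshold. The log2 fold change was -1.21 without the inhibitor. IGFBP4, which binds insulin-like growth factors, fell by 1.29 ± 0.34. Against HSA/d5 it was not called with all libraries, and was called lower, at -1.17 (adjusted p = 0.00575), without HSA/d5 replicate 3. MYC was at 0.35 ± 0.13 against HSA/d1 and at 0.56 ± 0.13 against HSA/d5 (adjusted p = 0.0145), where the groups did not overlap.

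The ligands of the TGF-beta family moved apart. INHBA, which encodes the chain of activin A, was at 63.5, 64.5, 58.4 and 67.6 CPM in HSA/d1, at 60.3, 55.9, 62.6 and 70.8 CPM in HSA/d5 and at 5.31, 3.58, 5.63 and 9.60 CPM in HSA + SB/d5. It held its level without the inhibitor (-0.03 ± 0.21) and fell by 3.39 ± 0.23 with it (adjusted p = 1.51e-08). INHBB, the chain of activin B, was at 24.1, 14.3, 21.8 and 26.3 CPM in HSA/d1, at 17.6, 13.4, 15.8 and 22.3 CPM in HSA/d5 and at 44.6, 32.6, 45.8 and 61.8 CPM in HSA + SB/d5. It rose by 1.10 ± 0.27 (adjusted p = 0.00441), a call lost without HSA/d1 replicate 2 (0.94) or HSA + SB/d5 replicate 4 (0.93), and was 1.42 ± 0.27 above HSA/d5 (adjusted p = 0.0028), a call kept with each library left out. TGFB1, TGFB2 and TGFB3, the TGF-beta ligands, fell with the inhibitor by 1.00, 1.03 and 1.04, just over the threshold. With single libraries left out they ranged from -1.10 to -0.93, -1.30 to -0.88 and -1.15 to -0.95, and their calls were lost without HSA/d1 replicate 1 or HSA + SB/d5 replicate 1 and in further fits. TGFB3 fell by 1.45 ± 0.21 also without the inhibitor. Of 14 ligands tested, 2 rose and 4 fell with the inhibitor, or 1 fell without HSA/d1 replicate 1, and 0 rose and 1 fell without the inhibitor. GDF15, the other ligand that rose (1.21 ± 0.27), was at 0.99 without HSA + SB/d5 replicate 2.

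Of 13 receptors, 1 rose and 2 fell. ENG, encoding the accessory receptor endoglin, was at 119 to 135 CPM in HSA/d1 and at 32.0 to 48.1 CPM in HSA + SB/d5 and fell by 1.55 ± 0.30 (adjusted p = 0.000662). In HSA/d5 it was at 133, 164, 39.5 and 120 CPM, so that replicate 3 lay among the libraries with the inhibitor. Its difference from HSA/d5 was -1.43 ± 0.30, and -1.71 without that library. BMPR1B, a receptor for bone morphogenetic proteins, fell by 1.52 ± 0.52 (adjusted p = 0.0314), but the call was lost, at -1.51 to -1.13, with any 1 of 5 libraries left out, among them HSA + SB/d5 replicates 1 to 3. ACVR1C, a type I receptor for activins and Nodal, rose by 1.55 ± 0.29, and by 1.82 ± 0.29 without the inhibitor. The transcript of TGFBR1, the kinase itself, was at 127 to 140 CPM in HSA/d1 and at 110 to 123 CPM in HSA + SB/d5 (-0.17 ± 0.08), and at -0.39 ± 0.08 against HSA/d5 (adjusted p = 0.00535). SMAD2 and SMAD3, the SMADs that the kinase phosphorylates, were at 0.02 ± 0.05 and -0.05 ± 0.13. These last 3 genes were named for their place in the pathway after their values had been seen.

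Some brakes on the pathway fell with the inhibitor, whereas most were not called. SMAD7, which blocks the receptor, was at 20.8, 33.6, 14.0 and 18.0 CPM in HSA/d1, at 22.2, 18.9, 9.66 and 16.8 CPM in HSA/d5 and at 3.37, 2.25, 1.72 and 2.53 CPM in HSA + SB/d5. It fell by 3.12 ± 0.30 with the inhibitor (adjusted p = 9.27e-07) and was at -0.36 ± 0.27 without it. It was the only one of 8 SMAD genes called. SKIL, a repressor of SMAD-driven transcription, was at 76.6 to 91.0 CPM in HSA/d1, at 72.2 to 95.2 CPM in HSA/d5 and at 18.0 to 24.2 CPM in HSA + SB/d5, and fell by 2.07 ± 0.11 (adjusted p = 6.54e-10). PMEPA1, which traps SMADs at the membrane, was at 396, 489, 365 and 370 CPM in HSA/d1, at 460, 492, 248 and 476 CPM in HSA/d5 and at 57.8, 49.0, 49.5 and 63.1 CPM in HSA + SB/d5, and fell by 2.88 ± 0.19 (adjusted p = 1.29e-08). For SMAD7, SKIL and PMEPA1 the libraries with the inhibitor lay below all the others. Their differences from HSA/d5 were -2.76, -2.12 and -2.93, with adjusted p of 8.96e-06, 4.31e-10 and 9.72e-09.

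Of 17 inhibitors, traps and feedback genes tested, 1 rose and 4 fell over the culture with the inhibitor. Besides SKIL and PMEPA1, these were FSTL3 (-1.77 ± 0.23) and FST (-1.08 ± 0.24), secreted proteins that bind activins. FST, at 0.665 to 2.54 CPM, was at -0.95 to -1.18 with single libraries left out and lost its call without HSA + SB/d5 replicate 2 or HSA/d1 replicate 4. SMURF1 and SMURF2, ubiquitin ligases acting on the pathway, were at -0.50 ± 0.09 and -0.40 ± 0.06, under the fold threshold, and BAMBI, a decoy receptor, at -0.34 ± 0.21. RANBP3L, which binds SMADs of the bone morphogenetic protein branch, rose by 2.34 ± 0.62, and by 3.16 ± 0.59 without the inhibitor. Its level in HSA/d1 was very low, at 0.0454 to 0.152 CPM. Reads were 1 to 3 in HSA/d1 and 2 to 14 in HSA + SB/d5, so these groups overlapped. In HSA/d5 vs HSA/d1, 1 rose and 0 fell. In HSA + SB/d5 vs HSA/d5, 1 was higher and 6 were lower, or 5 without HSA/d5 replicate 3. The higher gene was CHRDL1, an antagonist of bone morphogenetic proteins (1.88 ± 0.43), and the lower ones included LTBP1, which stores TGF-beta in the matrix (-1.24 ± 0.25, and not called without HSA/d5 replicate 2, at -0.99, or with only the libraries of both groups in the fit).

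Among textbook targets of TGF-beta and SMADs, more fell than rose. Of 18 tested, 1 rose and 9 fell with the inhibitor (median -1.13), against 1 and 2 without it (median -0.54), or 1 and 3 without HSA/d5 replicate 3. With the replicate block, 10 fell with and 5 without the inhibitor. In HSA + SB/d5 vs HSA/d5, 4 were lower, or 6 without HSA/d5 replicate 3 and 6 with the replicate block. SNAI1, a transcription factor of epithelial-mesenchymal transition, went from 14.5 to 18.7 CPM to 4.0 to 5.21 CPM and fell by 1.96 ± 0.28. Its relative SNAI2 fell by 1.21 ± 0.27, and by 1.90 ± 0.28 without the inhibitor. KLF10, an early TGF-beta response gene, fell by 1.14 ± 0.19, a call lost without HSA/d1 replicate 1, and was at -0.69 in HSA/d5 vs HSA/d1. CDKN1C, which restrains the cell cycle, fell by 1.12 ± 0.23, a value of -0.95 without HSA/d1 replicate 2, and by 1.46 ± 0.24 without the inhibitor. POSTN, encoding the matrix protein periostin, fell by 2.30 ± 0.49, and its difference from HSA/d5 of -1.49 ± 0.48 (adjusted p = 0.0636) was called with the replicate block and without HSA/d5 replicate 3 (-1.85). CDKN2B, an inhibitor of the cell cycle, was the gene that rose, by 1.24 ± 0.40 with and by 1.28 ± 0.40 without SB431542. Its rise with the inhibitor was not called without HSA/d1 replicate 1, HSA/d1 replicate 4, HSA + SB/d5 replicate 3 or HSA + SB/d5 replicate 4. TGFBI was at -0.17 ± 0.30. CDKN2A had at most 3 reads in any of the 12 libraries of these groups and was not tested.

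THBS1, encoding thrombospondin 1, differed in sign between the courses. It was at 263, 277, 223 and 263 CPM in HSA/d1, at 480, 619, 371 and 405 CPM in HSA/d5 and at 111, 134, 123 and 151 CPM in HSA + SB/d5. None of the 3 groups overlapped. The log2 fold change against HSA/d1 was 0.87 ± 0.18 without and -0.99 ± 0.18 with the inhibitor, with adjusted p of 0.000791 and 0.000365. Both sizes were below the fold threshold, so neither was called. The difference between the courses was -1.86 ± 0.18 (adjusted p = 2.32e-06).

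The extracellular matrix list, which has the most tested genes, had the most genes that fell with the inhibitor, 42.1% of those tested, whereas 9 of the 18 TGF-beta and SMAD targets and 5 of the 10 mesenchymal markers fell. Of 38 tested, 1 rose and 16 fell (median -0.61), or 17 fell without HSA/d5 replicate 3 in the fit. Without the inhibitor, 3 rose and 3 fell (median 0.14), or 3 and 2 without that library. TNC, encoding tenascin C, was at 485, 312, 894 and 924 CPM in HSA/d1, at 225, 124, 176 and 356 CPM in HSA/d5 and at 23.5, 15.8, 47.1 and 43.8 CPM in HSA + SB/d5. It fell in both courses, by 4.33 ± 0.49 with (adjusted p = 5.33e-06) and by 1.57 ± 0.43 without the inhibitor, and the difference of -2.76 ± 0.46 passed the test (adjusted p = 0.000753). COL8A1, a chain of the short-chain collagen VIII, went in opposite directions. It was at 9.08, 11.6, 7.97 and 11.1 CPM in HSA/d1, at 29.2, 46.6, 7.68 and 54.1 CPM in HSA/d5 and at 0.946, 0.307, 0.559 and 2.10 CPM in HSA + SB/d5. HSA/d5 replicate 3 stayed at the level of d1. COL8A1 fell by 3.33 ± 0.63 with the inhibitor and rose by 1.79 ± 0.53 without it, or by 2.12 without that library. FN1, encoding fibronectin, was at 1306, 779, 1078 and 1380 CPM in HSA/d1, at 2020, 2237, 518 and 2354 CPM in HSA/d5 and at 419, 296, 280 and 604 CPM in HSA + SB/d5. It fell by 1.51 ± 0.35 (adjusted p = 0.00289) and was 2.16 ± 0.36 lower on the log2 scale than in HSA/d5, or 2.46 lower without replicate 3.

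Enzymes that crosslink collagen and elastin were among them. LOXL1, LOX and LOXL2 fell by 3.24 ± 0.44, 2.26 ± 0.33 and 1.57 ± 0.20. LOX fell also without the inhibitor (-1.11 ± 0.32, and -0.82 without HSA/d5 replicate 3). ELN, encoding elastin, COL1A1 and COL3A1, encoding fibrillar collagens, and VCAN, encoding versican, fell by 2.42, 2.05, 1.67 and 1.15, the last at -0.96 without HSA/d1 replicate 4. TIMP1, an inhibitor of matrix proteases, fell by 1.39 ± 0.26 and, without SB431542, by 1.83 ± 0.27. The only matrix gene that rose was MMP9, a protease (1.88 ± 0.28), which rose by 2.16 ± 0.28 in HSA/d5. In HSA + SB/d5 vs HSA/d5, 9 of the 38 were lower and none higher, 16 without HSA/d5 replicate 3, and 13 with the replicate block, which added COL1A1 and ELN among others.

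**Figure D3:**
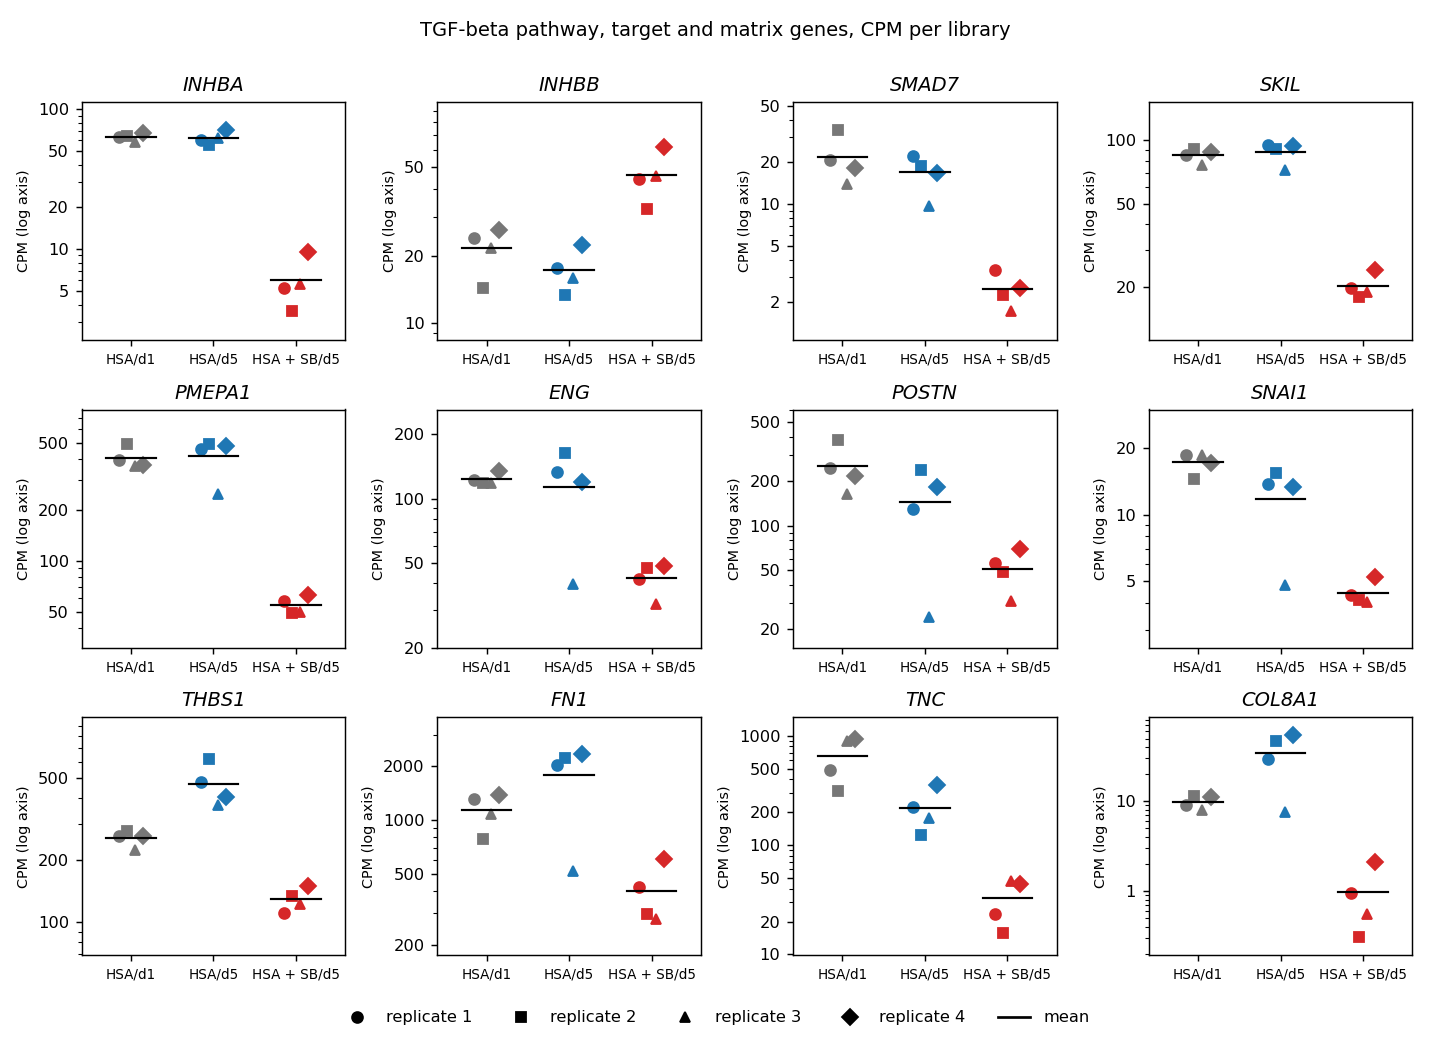
CPM on a log axis of 12 TGF-beta pathway, target and matrix genes in the 4 libraries each of HSA/d1 (grey), HSA/d5 (blue) and HSA + SB/d5 (red), with a marker for each replicate and a line at the mean. INHBA, SMAD7, SKIL, PMEPA1, TNC and COL8A1 lie lowest with the inhibitor, INHBB highest, and HSA/d5 replicate 3 lies apart from its group for PMEPA1, ENG, POSTN, SNAI1, FN1 and COL8A1.

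Some mesenchymal markers fell along with the matrix genes. Their summed CPM was 6209, 4956, 8579 and 7903 in HSA/d1 and 2339, 2773, 1648 and 3311 in HSA + SB/d5, and without replicate 3 it was 5123 to 5760 in HSA/d5. Of 10 tested, 5 fell and 0 rose with the inhibitor, or 6 fell without HSA/d5 replicate 3 in the fit. The 5 were COL1A1, COL1A2, COL3A1, LUM and TAGLN, of which COL1A1, COL1A2, COL3A1 and LUM were also on the matrix list and COL1A1 and TAGLN on the target list. In HSA + SB/d5 vs HSA/d5, 1 of the 10 was lower, or 4 without HSA/d5 replicate 3 and 0 without some other single libraries. COL3A1 held the most reads of the list (37.0%), and no member was at 0. The pericyte markers PDGFRB and RGS5, singled out after their values had been seen, were at 0.41 ± 0.28 and 0.32 ± 0.37. PDGFRB was at 250 to 331 CPM in HSA/d1 and at 301 to 429 CPM in HSA + SB/d5. These 2 were the only members of the list with a positive value in HSA + SB/d5 vs HSA/d1. The other 8 were negative, and 7 of the 10 fell with the replicate block. The part of a change in the number of mesenchymal cells in the matrix and target results was not tested.

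Most markers of endocrine cells rose. Their summed CPM was 5401, 4811, 7010 and 8328 in HSA/d1, 23237, 18838, 29307 and 32289 in HSA + SB/d5 and 35395, 23696, 30162 and 41358 in HSA/d5. Of 9 tested, 8 rose in each course, all but INS, and glucagon held most of the reads (59.7%). The count with the inhibitor was 5 without HSA/d1 replicate 2 or HSA + SB/d5 replicate 4. In HSA + SB/d5 vs HSA/d5, all 9 had a negative value and 0 were called. The acinar markers, digestive enzymes and their transcription factors, spread widely within each group, with sums of 26538, 15196, 12840 and 6126 CPM in HSA/d1, 13257, 8496, 9677 and 2902 CPM in HSA + SB/d5 and 12199, 4906, 2974 and 993 CPM in HSA/d5. In each block, the sum was lower at d5 than at d1, and higher in HSA + SB/d5 than in HSA/d5. Of 9 tested, 2 fell with the inhibitor, or 4 with the replicate block and 0 without HSA/d1 replicate 1, and in HSA + SB/d5 vs HSA/d5 none was called, whereas 4 were higher with the replicate block. CPA1, encoding carboxypeptidase A1 and holding 53.8% of the list's reads, was at -1.31 ± 0.75 (adjusted p = 0.194) and was called as lower with the replicate block. CPB1, another carboxypeptidase, fell and PRSS2, a trypsinogen, rose, but CPB1 was not called without HSA/d1 replicate 1 or any 1 of 5 others. Duct markers (8 tested, led by SPP1) gave 0 calls, with sums of 5628 to 7960 CPM in HSA/d1 and 5456 to 6754 CPM in HSA + SB/d5. Endothelial markers (10 tested, led by PECAM1) also gave 0, with 431 to 790 and 538 to 1132 CPM. PLVAP, a protein of fenestrated endothelium, was at -0.996 ± 0.30 (adjusted p = 0.0163), just under the fold threshold, and was called lower with the replicate block and without any 1 of 4 libraries (HSA/d1 replicates 1 and 2, HSA + SB/d5 replicates 3 and 4). Against HSA/d5, the duct marker AQP1 was higher (1.40, adjusted p = 0.0112), a call kept with each library left out. No other duct marker was called against HSA/d5, where 6 of the 8 had a negative value (median -0.07). KDR, a receptor for VEGF, was also higher there (1.04 ± 0.20) and PLVAP lower (-1.06 ± 0.30). The calls of KDR and PLVAP were lost without any 1 of 2 libraries (at 0.94 and 0.97) and of 5 libraries (at -1.06 to -0.90). Immune markers, led by LAPTM5 and with CD3E at 0 in all 12 libraries, were low, with sums of 56.0 to 61.3 CPM in HSA/d1 and 71.8 to 102 CPM in HSA + SB/d5, and PTPRC, the pan-leucocyte gene, rose by 1.66 ± 0.53, lost without HSA + SB/d5 replicate 1 or HSA/d1 replicate 4. Of 3 Schwann cell markers tested, 1 rose and 0 fell. The part of these cells in the results was not tested.

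**Figure D4:**
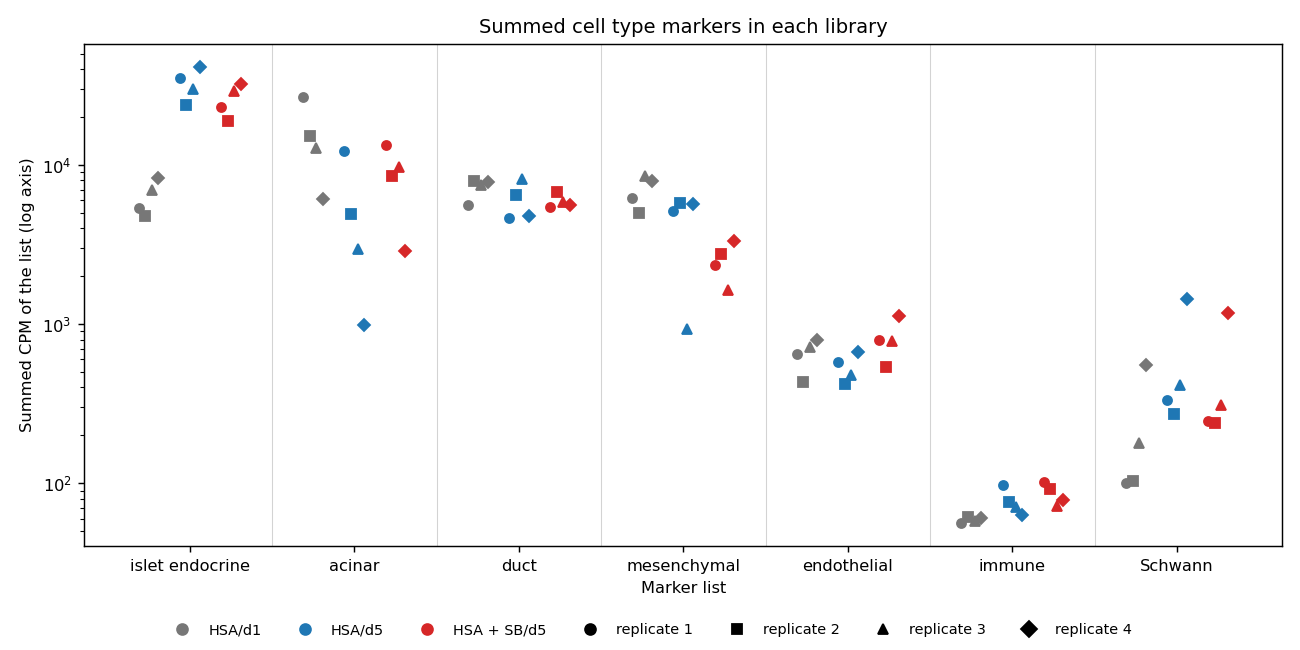
Summed CPM, on a log axis, of 7 marker lists in each library of HSA/d1 (grey), HSA/d5 (blue) and HSA + SB/d5 (red), with a marker shape for each replicate. Endocrine sums lie higher in both d5 groups, mesenchymal sums lie lower in HSA + SB/d5 and in HSA/d5 replicate 3, and replicate 4 has the highest Schwann cell sums.

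Side by side, the lists fell into sets. The 4 lists on endocrine identity, hormones and secretion and the list on the cell cycle had no member that fell in either course. Both courses share the HSA/d1 libraries, so their lists are set side by side without a test. Inflammation genes gave 1 fall with the inhibitor (CXCL8, by 1.41 ± 0.48, lost with any 1 of 6 libraries left out) and 2 rises without it, or 0 without HSA/d5 replicate 3. In HSA + SB/d5 vs HSA/d5, 3 of 10 were lower, or 2 without that library. PTGS2, encoding the prostaglandin enzyme COX-2, was at 16.6, 23.8, 8.16 and 7.09 CPM in HSA/d1, at 41.0, 34.7, 158 and 11.7 CPM in HSA/d5 and at 10.0, 2.92, 4.56 and 3.82 CPM in HSA + SB/d5, and differed by -3.51 ± 0.70 from HSA/d5, or by -2.43 without replicate 3, which held its highest value. The chemokine genes CCL2 and CXCL8 differed by -1.85 ± 0.27 and -1.77 ± 0.49, and CXCL8 was not called without that library (-0.66, adjusted p = 0.237) or any 1 of the 4 HSA + SB/d5 libraries. Of stress and hypoxia genes, ADM alone fell (-1.49 ± 0.48), and not without HSA/d1 replicates 1 or 2 or HSA + SB/d5 replicates 1 or 2. Without the inhibitor 2 of the 13 tested fell, or 1 to 3 with single libraries left out. The median was -0.66 without and -0.19 with the inhibitor. Of 12 cholesterol and fatty acid genes, SCD, a desaturase, rose by 1.24 ± 0.19 (1.53 ± 0.19 without the inhibitor).

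**Figure D5:**
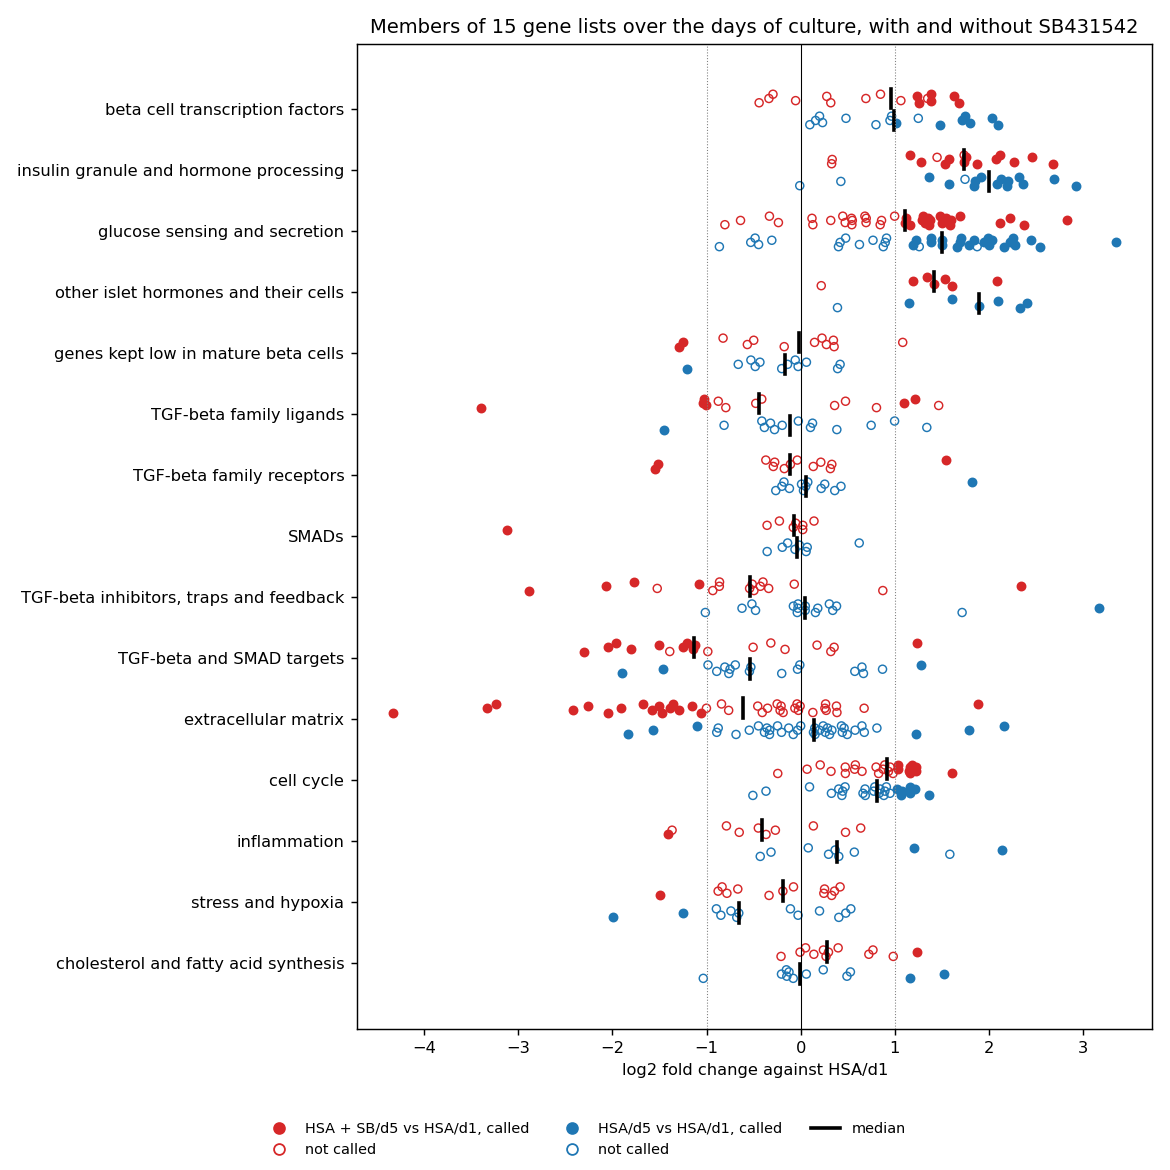
Log2 fold changes against HSA/d1 of the tested members of 15 gene lists in HSA + SB/d5 (red) and HSA/d5 (blue), with filled points for called genes, open points for those not called, and black bars at the medians. The medians of the endocrine, secretory and cell cycle lists lie to the right of 0 in both, though some members lie to the left. TGF-beta feedback genes, targets and matrix genes extend to the left with the inhibitor.

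The 10 genes with the largest rise and the 10 with the largest fall, among genes with a symbol called without overlap and at a mean of at least 1 CPM, were outside the lists apart from PRSS2 and TNC. PRND, encoding the prion-like protein doppel, rose most. It was at 0.558, 0.272, 2.06 and 1.01 CPM in HSA/d1, at 6.23, 1.75, 4.81 and 4.61 CPM in HSA/d5 and at 35.0, 16.3, 44.0 and 42.8 CPM in HSA + SB/d5. The log2 fold change was 5.14 ± 0.68 (adjusted p = 2.24e-05) with and 2.15 ± 0.66 without the inhibitor, a difference of 2.99 ± 0.58 (adjusted p = 0.00313). RAB7B, a small GTPase of the endosome, was at 0.910 to 1.27 CPM in HSA/d1, at 0.618 to 2.22 CPM in HSA/d5 and at 7.45 to 13.5 CPM in HSA + SB/d5, rising by 3.05 ± 0.35, against 0.29 ± 0.36 without the inhibitor. PRSS2 rose by 4.12 ± 0.73, and belongs to the trypsinogen family, whose members share sequence and may share reads. TF, encoding transferrin (3.92 ± 0.48), SLC24A2, a sodium, calcium and potassium exchanger (3.68 ± 0.86), TNR, encoding tenascin R (2.86 ± 0.28), BPIFA1 (2.86 ± 0.68), and GALNT9, a glycosyltransferase (2.91 ± 0.71), rose also without the inhibitor, by 4.29, 2.69, 2.67, 3.50 and 2.64. LYPD8 (3.55 ± 0.91) was highest in HSA + SB/d5 replicates 1 and 2, at 25.9 and 11.7 CPM against 2.00 and 1.86 CPM in the others. MMRN1, encoding multimerin 1, rose by 3.19 ± 0.68.

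CILP, a protein of the cartilage matrix, fell most. It was at 32.8, 24.4, 27.2 and 45.2 CPM in HSA/d1, at 11.7, 13.7, 1.15 and 16.9 CPM in HSA/d5 and at 0.535, 0.511, 0.466 and 0.717 CPM in HSA + SB/d5. It fell by 5.85 ± 0.70 (adjusted p = 9.3e-06) with and by 1.58 ± 0.54 without the inhibitor, a difference of -4.27 ± 0.68. C1QTNF3 (-4.37 ± 0.70), an adipokine also made by mesenchymal cells, ASPN, encoding asporin (-3.89 ± 0.67), and COL8A2, the second chain of collagen VIII (-3.65 ± 0.78), were matrix or mesenchymal genes too. COL8A2, like COL8A1, rose without the inhibitor (1.64 ± 0.60, at 0.883 CPM in replicate 3 against 9.93 to 15.5 CPM in the others), and its difference was -5.29 ± 0.78 (adjusted p = 0.00025). S100A12, a calcium-binding protein of inflammation, was at 2.16 to 4.17 CPM in HSA/d1 and at 0 to 0.452 CPM in HSA + SB/d5, and fell by 4.26 ± 0.88. SLC2A5, the fructose transporter, CPA4, a carboxypeptidase, CBR1, a carbonyl reductase, and PDIA2, a pancreatic disulfide isomerase, fell by 4.27, 4.21, 3.97 and 3.51 with and by 2.93, 2.91, 4.51 and 4.08 without the inhibitor.

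In the 8 libraries with LDN, which enter the comparisons above only through the shared estimate of the spread, HSA + SB + LDN/d5 vs HSA + LDN/d5 gave 36 higher (0.243%) and 87 lower genes (0.586%), and 182 and 203 with the replicate block. INHBA, SMAD7, SKIL and PMEPA1 were lower with SB431542 there too, by 2.66 ± 0.23, 2.38 ± 0.30, 1.48 ± 0.11 and 2.23 ± 0.19, without overlap. COL8A1, FN1, THBS1, SNAI1 and CILP were lower, at -3.42, -1.85, -1.35, -1.41 and -3.20, and so was PAX4 (-2.02 ± 0.42). PRND and RAB7B were higher, at 2.26 and 2.07. TNC, at -1.67 ± 0.44 (adjusted p = 0.058), and ENG, at -1.12 ± 0.29 (adjusted p = 0.0584), were called only with the replicate block, and INHBB was at 1.01 ± 0.27 (adjusted p = 0.0679). GCG, SST, CHGA, NEUROD1 and TOP2A were at -0.19, -0.25, -0.38, -0.44 and 0.19 and were not called.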

How the data were processed

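RNA of 24 NICC libraries (6 conditions of 4) was sequenced by the authors as strand-specific, poly-A-selected single reads. The values the authors deposited are whole read counts for each gene, without normalisation, in 1 column per library; 6 libraries listed with 2 runs have 1 column and were counted once. The submitters' processing notes name Trim Galore 0.5, STAR 2.6.1 and featureCounts 1.6.2; the genome build is not given in the sources used here. Of 25880 Ensembl identifiers, 14857 had a symbol, and 10.8% of counts lay on identifiers without one. Genes without a symbol match, such as PDX1, UCN3 and MKI67, were not analysed here. JUNB, COL6A2, MCM5 and HMOX1 are listed at 0 in these 12 libraries.

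Counts were tested with edgeR 4.0.16 in R 4.3.3 (filterByExpr, TMM, glmQLFit and glmQLFTest, 1 coefficient per condition over all 24 libraries). In simulated counts for HSA + SB/d5 vs HSA/d1, 188 of 200 genes given a true log2 fold change of 2 were recovered. There were 3 false calls among 14726 genes. The simulated libraries had no replicate blocks and no outlying library, and their spread was estimated from the same data. Smaller changes were not simulated, so the rate of false calls in the real comparison was not measured. Members and gene lists were chosen with earlier results of these data known. Genes were named if they were called list members, were named by the study, or were among the 10 largest changes in a direction. Up to 2 uncalled genes per list, those of smallest p, were allowed. BAMBI and the genes marked as chosen after their values had been seen were named outside this rule. Some members of the lists, counted in them, are not reported here by name.

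Library numbers repeat through the conditions in blocks of 6. Deviations from the condition means correlated at 0.447 to 0.696 between HSA + SB/d5 and HSA/d1 libraries of the same block (-0.494 to 0.279 between blocks), and at 0.257 or more in the other comparisons, so the block was fitted as an alternative. No pair of libraries of a condition agreed within counting noise (chi-square per degree of freedom 15.1 to 87.8).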

Additional observations from a re-analysis of the deposited data

Results flagged for a closer look

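Among 120 groups of 4 libraries examined, 5 (4.17%) had a highest or lowest library far from the other 3, where chance alone gives about 1 in 20. In HSA/d5 replicate 3 the mesenchymal marker sum was 932 CPM against 5123 to 5760 in the others, and PMEPA1 was at 248 CPM against 460 to 492. In replicate 4 the Schwann cell marker sum was 1438 CPM in HSA/d5 against 273 to 413, and 1178 CPM in HSA + SB/d5 against 238 to 310. ENG in HSA/d1 replicate 4 was at 135 CPM against 119 to 122.

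For a test of whether the effect of SB431542 differed with LDN, edgeR gave 0 genes with an adjusted p below 0.05. An unadjusted p below 0.05 was found for 174 of 14842 tested, fewer than chance alone gives at that threshold. The fit left out the replicate block, so the lack of calls does not show that the effect was the same with LDN.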

How the results depend on the processing

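Of 119 genes of the lists, the study or the largest changes that were called in HSA + SB/d5 vs HSA/d1 and followed through the alternatives, none reversed, 34 were called under every alternative, and 53 were lost only in glmTreat, which tests against a log2 fold change of 1. With glmTreat 53 genes were higher and 42 lower, against 84 and 30 in HSA/d5 vs HSA/d1, 12 and 42 in HSA + SB/d5 vs HSA/d5, and 2 and 10 in HSA + SB + LDN/d5 vs HSA + LDN/d5. With at least 10 counts in every library, 205 and 187 genes were lower in the time courses with and without the inhibitor, 84 higher in HSA + SB/d5 vs HSA/d5 and 22 higher with LDN. With only the 2 groups compared, HSA + SB/d5 vs HSA/d5 gave 68 higher and 91 lower genes, and 18 were higher with LDN, where DESeq2 1.42.0 gave 68. The replicate block gave 268 and 371, and with LDN 182 and 203. Each cause was not tested beyond the fewer genes or libraries used.

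With single libraries left out, HSA + SB/d5 vs HSA/d1 gave 579 to 866 higher and 289 to 365 lower genes, HSA + SB/d5 vs HSA/d5 gave 144 (without HSA + SB/d5 replicate 1) to 269 lower genes, and with LDN 13 (without HSA + LDN/d5 replicate 4) to 39 were higher and 43 (without HSA + SB + LDN/d5 replicate 3) to 82 lower. Values near 0 turned sign without a call: SLC2A2 (-0.46 to 0.17), SMAD2 (-0.0039 to 0.042) and SMAD3 (-0.13 to 0.028) against HSA/d1, and INS against HSA/d5 (-0.45 to 0.74, 0.24 with the replicate block and 0.29 without replicate 4 of each condition). Leaving out replicate 4 of each condition or HSA/d5 replicate 3 was added after seeing the data. Low counts limited PAX4 and CDKN2A. SYT10 and RANBP3L had 1 to 3 reads in each HSA/d1 library, and C1QTNF3 had 0 to 3 in each HSA + SB/d5 library.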

Other observations

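Genes outside the lists also changed, and those given here were chosen after their values had been seen. Among digestive enzymes of acinar cells, PLA2G1B, a phospholipase, was at 994, 636, 353 and 194 CPM in HSA/d1, at 84.9, 62.9, 29.9 and 13.7 CPM in HSA + SB/d5 and at 15.3, 12.6, 3.49 and 2.46 CPM in HSA/d5. It fell by 3.51 ± 0.79 with and by 6.00 ± 0.90 without the inhibitor, and the difference of 2.50 ± 0.79 (adjusted p = 0.0596) was called with the replicate block. CLPS, encoding colipase, fell by 3.34 ± 0.65 and 4.39 ± 0.68. Also higher with the inhibitor were APOA1, the apolipoprotein of high-density lipoprotein, at 2.01 ± 0.16, the peptidases DPP4 and ENPEP at 2.01 ± 0.15 and 2.12 ± 0.27, and the glucosidase MGAM at 2.09 ± 0.25. APOA1, DPP4 and ENPEP also rose without it, by 1.21, 1.52 and 1.52, whereas MGAM was at 0.79, and its difference was 1.30 ± 0.24 (adjusted p = 0.00206). NR0B2, a nuclear receptor that curbs bile acid synthesis, rose by 2.08 ± 0.41 with the inhibitor and was at 0.17 ± 0.43 without it.

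Some cytokine genes moved apart. CCL19, a chemokine, was at 0.318 to 1.39 CPM in HSA/d1, at 0.0883 to 0.615 CPM in HSA/d5 and at 3.25 to 6.03 CPM in HSA + SB/d5, a rise by 2.44 ± 0.50 with the inhibitor and a difference of 4.05 ± 0.57 from HSA/d5 (adjusted p = 0.000172). IL11, a cytokine of the interleukin-6 family, was at 77.6 to 119 CPM in HSA/d1, at 101 to 157 CPM in HSA/d5 and at 12.9 to 23.2 CPM in HSA + SB/d5, and fell by 2.26 ± 0.27. MMP7, a matrix protease of ducts, fell by 1.89 ± 0.27 and was at -0.42 ± 0.26 without the inhibitor.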
